A study of Oryza sativa with 12 samples.

Results

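Aux/IAA proteins are the repressors of the auxin response, and 10 of the genes that encode them were followed through rice peduncles around heading. The genes were taken by their locus identifiers, *OsIAA1*, *OsIAA6*, *OsIAA9*, *OsIAA11*, *OsIAA13*, *OsIAA14*, *OsIAA20*, *OsIAA23*, *OsIAA30* and LOC_Os12g40900, and all 10 were found among 53380 loci that have a row of their own. LOC_Os12g40900 carries no symbol in the tables of the study, which place it in the AUX/IAA family. The peduncle is the uppermost internode of the rice stem, which pushes the panicle out of the flag leaf sheath. It was sampled from 2 *indica* cultivars grown in an open field, Swarna, an elite cultivar, and Pokkali, a salinity-tolerant landrace. Non-elongating peduncles after heading (NP) were compared with elongating peduncles before heading (EP), with 3 libraries in each of the 4 groups, Swarna NP, Swarna EP, Pokkali NP and Pokkali EP. No treatment or engineered allele is part of the design.

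Auxin acts by removing repressors. When auxin is low, Aux/IAA proteins bind auxin response factors (ARFs) on the promoters of auxin-responsive genes and recruit TOPLESS co-repressors. When auxin is high, it holds an Aux/IAA protein against the F-box receptor TIR1 or its AFB relatives, the protein is ubiquitinated and degraded, and the ARF is released. Many Aux/IAA genes are themselves induced by auxin, which closes a feedback loop, and the canonical proteins are short-lived. In grass stems, auxin takes part in cell division and cell elongation of the growing internode.

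The deposited table holds 1 FPKM value (fragments per kilobase of transcript, scaled to library depth) for each locus and group, and each such value stands for 3 libraries together. No spread between libraries, no interval and no test can be had from such values, and the depth behind them is not part of the table. Every difference below is therefore a ratio of 2 group values without a replicate check, and neighbours in an order of levels cannot be separated or joined by their error. Ratios are log2 ratios after adding 0.5 to each FPKM, which understates the ratio of low genes, and a gene counts as 2-fold different when its log2 ratio is 1 or more, or −1 or less. The 10 genes all reached an FPKM of 1 in at least 1 group, as did 19126 loci in all, which are the background of each count. All 10 also stand in the study's tables of genes that differ, drawn up from the same libraries. Neither the number of them past 2-fold nor their direction is therefore independent evidence.

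The samples were checked with a few loci assigned to tissues from general knowledge of rice. The 3 secondary wall cellulose synthase loci of the stem summed to 15.5 FPKM in Swarna NP and 172 in Swarna EP, and to 213 in Pokkali NP and 562 in Pokkali EP. The 2 KNOX homeobox loci of internodes summed to 257 and 67.8 FPKM in Swarna NP and EP, and to 154 and 88.7 in Pokkali NP and EP. The 2 green tissue loci, *RBCS* and *LHCB*, summed to 4.24 and 11.9 FPKM in Swarna NP and EP, against 205 and 30.8 in Pokkali NP and EP. Nearly all of this was *RBCS*, with 204 FPKM in Pokkali NP and 29.6 in Pokkali EP. *LHCB* was low in every group and did not rise in Pokkali NP, with 0.967 FPKM there and 1.23 in Pokkali EP. The 3 tapetum loci with a row of their own were near 0, at 0.0963 to 0.573 FPKM in sum over the groups. The stem and *RBCS* levels move with stage and cultivar, and their part in the results below was not tested. In whole peduncles, fewer cells of a type and less RNA per cell cannot be told apart.

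The summed level of the 10 genes was lower in NP than in EP in both cultivars. It was 138 FPKM in Swarna NP, against 427 in Swarna EP, 3.10-fold lower, and 178 FPKM in Pokkali NP, against 466 in Pokkali EP, 2.62-fold lower. These sums use the FPKM as deposited, and no other scaling was tried on them. *OsIAA13* alone made up 60.4% of the sum in Swarna NP and 65.8% in Swarna EP, and 80.2% in Pokkali NP and 68.2% in Pokkali EP. Without it, the sum was 54.7 FPKM in Swarna NP and 146 in Swarna EP, and 35.1 in Pokkali NP and 148 in Pokkali EP. The median gene of the 10 had 2.33 FPKM in Swarna NP and 11.7 in Swarna EP, and 3.27 in Pokkali NP and 7.72 in Pokkali EP, while the median of all loci lay between 5.56 and 6.26 FPKM in every group.

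**Figure D1:**
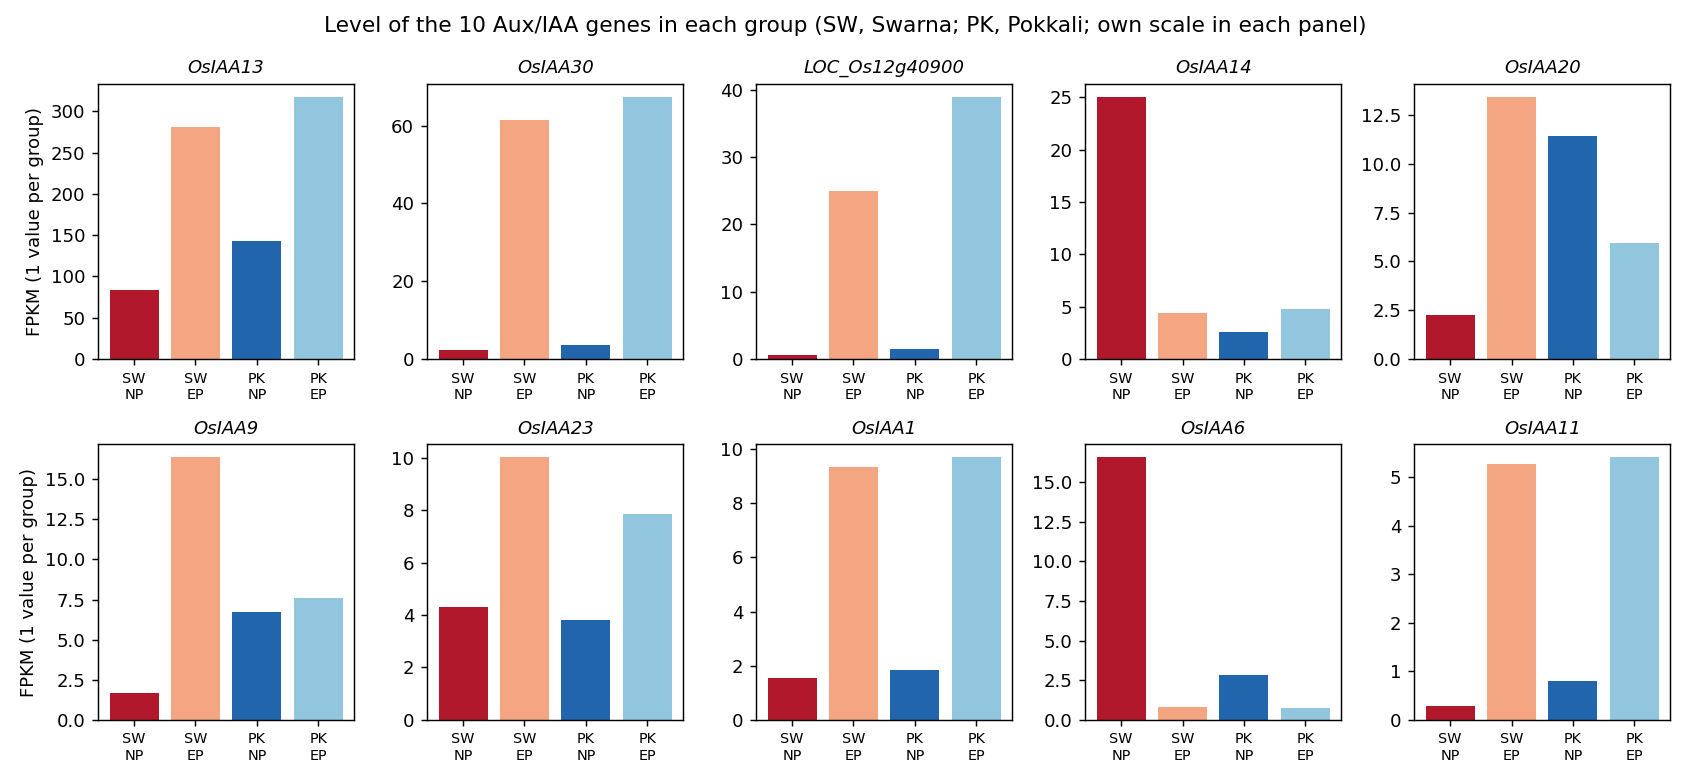
Bars give the FPKM of each of the 10 Aux/IAA genes in Swarna NP, Swarna EP, Pokkali NP and Pokkali EP, 1 value per group with the 3 libraries combined and no error, each panel on its own linear scale from 0. *OsIAA30* and LOC_Os12g40900 are high in both EP groups alone, *OsIAA6* and *OsIAA14* are highest in Swarna NP, at 16.6 and 25.1 FPKM, and *OsIAA20* is lowest in Swarna NP, at 2.24 FPKM.

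In Swarna, 8 of the 10 genes were at least 2-fold lower in NP, where 25.4% of all loci were, and the other 2 were at least 2-fold higher, where 26.6% of all loci were, or 51.9% either way. In Pokkali, 5 genes were lower in NP by 2-fold or more, against 14.8% of all loci, and 1 was higher by as much, against 15.9%, or 30.7% either way. The median log2 ratio of the 10 genes was −2.31 in Swarna and −1.05 in Pokkali, beside medians of 0.03 and 0.05 over all loci. The same 5 genes were lower in NP in both cultivars, where 11.0% of all loci were, and 1 was higher in both, where 10.8% were. None of the 20 ratios, 10 in each cultivar, turned its sign under another constant, scaling, choice of row or filter. The FPKM of all loci sum to 609663 in Swarna NP and 330514 in Swarna EP, and to 502800 in Pokkali NP and 419002 in Pokkali EP. Setting these sums equal shifts the median log2 ratio of all loci by −0.82 in Swarna and −0.19 in Pokkali. Of the loci past 2-fold, 51.2% were higher in Swarna NP as deposited and 25.1% with equal sums, and in Pokkali 51.8 and 38.4%. With equal sums, 8 of the 10 genes were lower in Swarna NP, where 43.9% of all loci were, and 2 were higher, where 14.7% were. In Pokkali NP, 6 were then lower, against 19.2% of all loci, and 1 was higher, against 12.0%.

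**Figure D2:**
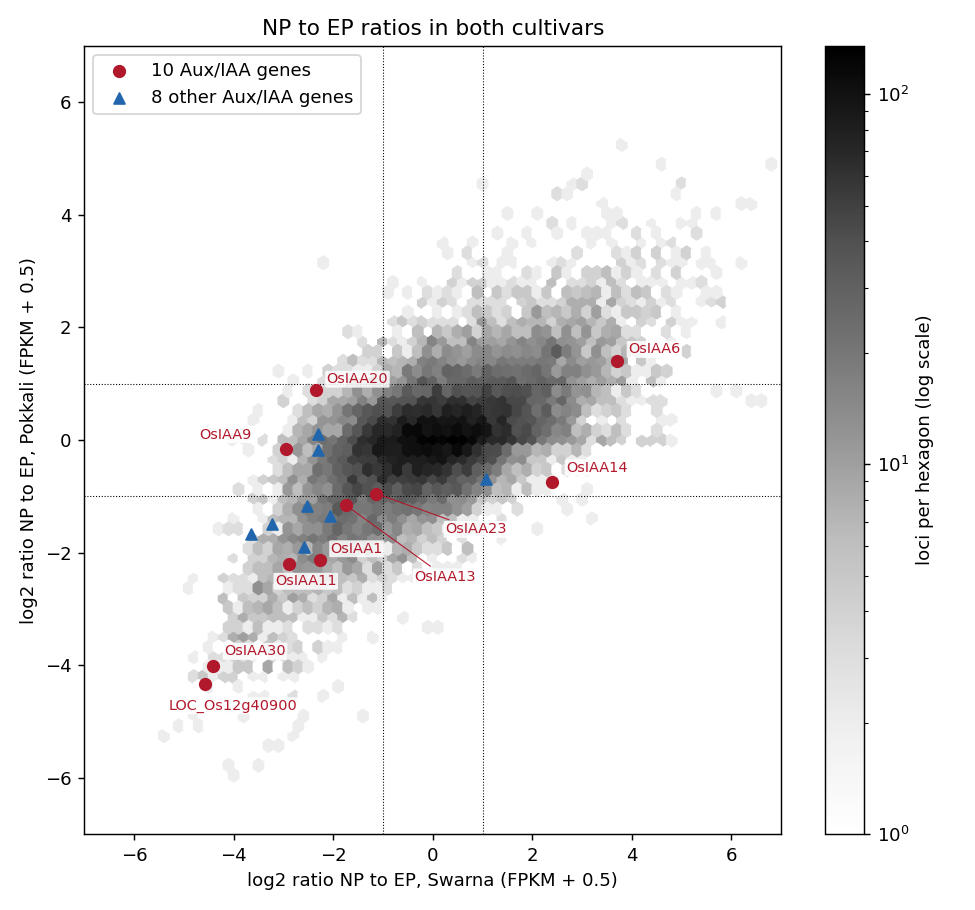
Each axis gives the log2 ratio of NP to EP (FPKM + 0.5), Swarna across and Pokkali up, with all loci in grey hexagons, the 10 Aux/IAA genes as red points, 8 other Aux/IAA genes as blue triangles and dotted lines at 2-fold. 33 loci lie beyond the axes, *OsIAA30* and LOC_Os12g40900 lie at the lower left with ratios of −4.58 to −4.02, and *OsIAA14* and *OsIAA20* lie on opposite sides of 0 in the 2 cultivars.

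The largest differences of the 10 belonged to a pair of neighbours on chromosome 12. *OsIAA30* (LOC_Os12g40890) lies on chromosome 12 from 25310812 to 25316268 in the assembly of the Rice Genome Annotation Project version 7, and LOC_Os12g40900 from 25325549 to 25327567, with 9280 bases between the assembled spans. *OsIAA30* had 2.43 FPKM in Swarna NP and 61.5 in Swarna EP, and 3.70 FPKM in Pokkali NP and 67.4 in Pokkali EP. LOC_Os12g40900 had 0.562 FPKM in Swarna NP and 24.9 in Swarna EP, and 1.45 FPKM in Pokkali NP and 39.0 in Pokkali EP. Both genes were thus among the 3 highest of the 10 in EP of either cultivar, and LOC_Os12g40900 ranked 9 of 10 in NP of either. The log2 ratios of NP to EP were −4.41 in Swarna and −4.02 in Pokkali for *OsIAA30*, and −4.58 and −4.34 for LOC_Os12g40900. The Swarna NP value of LOC_Os12g40900 lies below 1 FPKM, and its Swarna ratio was −5.24 with a constant of 0.1 and −4.05 with 1. The 4 group values of the pair, on a log2 scale centred on their means, had a Euclidean distance of 0.50 over 4 groups, beside 0.51 for *OsIAA1* and *OsIAA11* and 0.85 or more for every other pair of the 10 genes. A distance of this size is not particular to neighbours, since *OsIAA13* lay at 0.42 from *OsIAA24*, an Aux/IAA gene outside the 10. *OsIAA30* has 2 further rows with the same span, which reach at most 0.793 FPKM.

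*OsIAA13* (LOC_Os03g53150, chromosome 3 from 30476518 to 30483331), in which a stabilizing mutation impairs lateral root initiation in rice, was the most abundant of the 10 in every group. It had 83.4 FPKM in Swarna NP and 281 in Swarna EP, a log2 ratio of −1.75, and 143 FPKM in Pokkali NP and 318 in Pokkali EP, a log2 ratio of −1.15. Its ratios were −2.63 in Swarna and −1.42 in Pokkali with equal column sums, and −2.76 and −1.31 with quantile normalization. Its level was above that of 93.4% of all loci in Swarna NP and 99.6% in Swarna EP, and of 97.4% in Pokkali NP and 99.3% in Pokkali EP. The assembled span of *OsIAA13* is shared with LOC_Os03g53140, whose higher row had 11.5 and 8.59 FPKM in Swarna NP and EP and 7.83 and 7.31 in Pokkali NP and EP, so the span holds more than 1 gene.

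*OsIAA1* and *OsIAA11* had lower levels, and both were lower in NP in each cultivar. *OsIAA1* (LOC_Os01g08320, chromosome 1 from 4073676 to 4076438), which in rice has been linked to auxin and brassinosteroid responses, had 1.55 FPKM in Swarna NP and 9.35 in Swarna EP. In Pokkali NP it had 1.83 FPKM, against 9.69 in Pokkali EP, and its log2 ratios were −2.27 in Swarna and −2.13 in Pokkali. *OsIAA11* (LOC_Os03g43400, chromosome 3 from 24198643 to 24202266), in which a stabilizing mutation blocks lateral root formation in rice, was the lowest of the 10 in both NP groups. It had 0.285 FPKM in Swarna NP and 5.27 in Swarna EP, and 0.792 FPKM in Pokkali NP and 5.41 in Pokkali EP, with log2 ratios of −2.88 and −2.19. Both NP values of *OsIAA11* lie below 1 FPKM, where the added constant sets much of the ratio. The ratio of *OsIAA11* in Swarna minus that in Pokkali was −0.69, and it passed 2-fold with a constant of 0.1, at −1.18, and with equal column sums, at −1.07.

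*OsIAA23* (LOC_Os06g39590, chromosome 6 from 23501973 to 23503503), known in rice for maintaining the quiescent center of the root, had the smallest mean size of ratio of the 10. It had 4.30 FPKM in Swarna NP and 10.02 in Swarna EP, and 3.83 FPKM in Pokkali NP and 7.87 in Pokkali EP. Its log2 ratio was −1.13 for Swarna. For Pokkali it was −0.95 with the constant of 0.5, −1.02 with 0.1 and −1.19 with equal column sums. *OsIAA23* therefore stands at the edge of the 2-fold mark in Pokkali.

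*OsIAA6* (LOC_Os01g53880, chromosome 1 from 30974549 to 30986791), which in rice has been linked to drought tolerance and tiller outgrowth, was the single gene of the 10 whose NP level was higher by 2-fold or more in both Swarna and Pokkali. It had 16.6 FPKM in Swarna NP and 0.806 in Swarna EP, and 2.84 FPKM in Pokkali NP and 0.755 in Pokkali EP. Its log2 ratios were 3.71 in Swarna and 1.41 in Pokkali. Both EP values of *OsIAA6* lie below 1 FPKM, where the added constant sets much of the ratio. With a constant of 1 the ratios were 3.28 in Swarna and 1.13 in Pokkali, and with 0.1 they were 4.20 and 1.78. The lowest of the 10 in both EP groups, *OsIAA6* ranked 3 of 10 in Swarna NP and 6 of 10 in Pokkali NP. Its assembled span of 12243 bases is the longest of the 10 and is shared with LOC_Os01g53890, which had 2.18 and 2.26 FPKM in Swarna NP and EP and 5.93 and 2.11 in Pokkali NP and EP. LOC_Os01g53890 was thus highest in Pokkali NP, and any part of the shared span in the level of *OsIAA6* was not tested.

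The remaining 3 genes had ratios that were large in Swarna and under 2-fold in Pokkali. *OsIAA14* (LOC_Os03g58350, chromosome 3 from 33246011 to 33249850) had 25.1 FPKM in Swarna NP and 4.37 in Swarna EP, a log2 ratio of 2.39. In Pokkali NP it had 2.61 FPKM, against 4.74 in Pokkali EP, a log2 ratio of −0.75. The level of *OsIAA14* in Swarna NP stands alone above 3 values between 2.61 and 4.74 FPKM, and a second row of this locus had at most 0.591 FPKM.

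*OsIAA20* (LOC_Os06g07040, chromosome 6 from 3342423 to 3346318), which in rice has been linked to drought and salt tolerance, went the other way. It had 2.24 FPKM in Swarna NP and 13.4 in Swarna EP, a log2 ratio of −2.35, and 11.4 FPKM in Pokkali NP and 5.96 in Pokkali EP, a log2 ratio of 0.88. *OsIAA9* (LOC_Os02g56120, chromosome 2 from 34348582 to 34349856) had 1.69 FPKM in Swarna NP and 16.4 in Swarna EP, a log2 ratio of −2.94. In Pokkali it was nearly level, with 6.69 FPKM in NP and 7.57 in EP, a log2 ratio of −0.17. Both *OsIAA20* and *OsIAA9* were therefore highest in Swarna EP and lowest in Swarna NP, with the Pokkali groups in between.

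The log2 ratio of NP to EP differed by at least 1 between the cultivars for 4 of the 10 genes. The difference, Swarna minus Pokkali, was 3.14 for *OsIAA14*, 2.30 for *OsIAA6*, −3.23 for *OsIAA20* and −2.78 for *OsIAA9*. A positive difference of this size was found for 21.9% of all loci and a negative one for 19.2%, or 41.1% either way, so that 2 genes in each direction is close to the share of all loci. Equal column sums shift the median difference of all loci by −0.57, and the positive part of the loci past this size was 25.1% with them and 53.2% as deposited. *OsIAA14* was at least 2-fold higher in Swarna NP with the opposite sign in Pokkali, as were 3.62% of all loci, and *OsIAA20* was lower in Swarna NP with the opposite sign in Pokkali, as were 5.27%. The other 6 genes differed by −0.69 to −0.14. Of these, *OsIAA11* passed 2-fold as given above, and *OsIAA13* did with equal column sums, at −1.21, and with quantile normalization, at −1.44. No test of these differences is possible without the libraries.

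The cultivars were then compared within each stage. In EP, 2 of the 10 genes were at least 2-fold higher in Swarna than in Pokkali, where 7.49% of all loci were, and none was at least 2-fold lower, against 9.92% of all loci, or 17.4% either way. These were *OsIAA20* and *OsIAA9*, with log2 ratios of 1.11 and 1.06, just past 2-fold. The other 8 had log2 ratios of Swarna to Pokkali between −0.64 and 0.33 in EP, and the sign of 6 of these small ratios turned under an alternative. Equal column sums shift the median of all loci by 0.30 here, and the part higher in Swarna among loci past 2-fold was 69.9% with them and 43.0% as deposited.

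In NP, 2 genes were at least 2-fold higher in Swarna, where 20.4% of all loci were, and 2 at least 2-fold lower, against 20.3%, or 40.7% either way, again the share of all loci. Equal column sums shift the median of all loci by −0.20 here, and 37.5% of the loci past 2-fold were then higher in Swarna, against 50.2% as deposited. *OsIAA14* had a log2 ratio of Swarna to Pokkali of 3.04 in NP and −0.10 in EP, and *OsIAA6* had 2.35 in NP and 0.06 in EP. *OsIAA20* had −2.12 in NP and 1.11 in EP, and *OsIAA9* had −1.71 in NP and 1.06 in EP. The last pair was therefore higher in Swarna before heading and higher in Pokkali after it. Close to 2-fold in NP were LOC_Os12g40900, *OsIAA13* and *OsIAA11*, with log2 ratios of −0.88, −0.77 and −0.72. LOC_Os12g40900 and *OsIAA11* passed 2-fold with a constant of 0.1, at −1.23 and −1.21, and *OsIAA13* with equal column sums or quantile normalization, at −1.05 and −1.11.

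**Figure D3:**
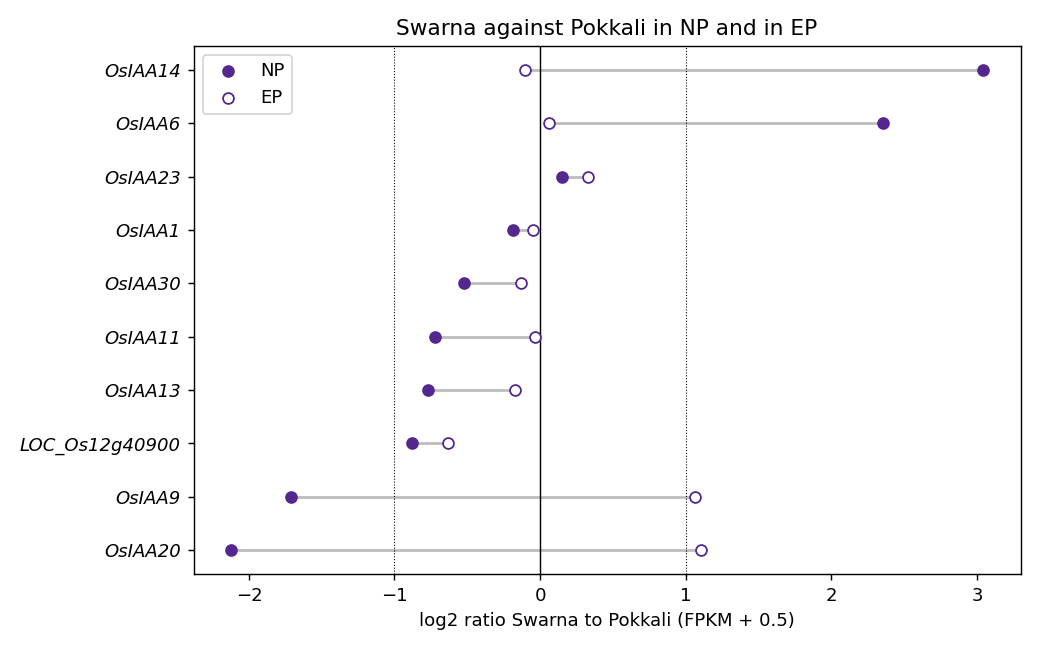
Points give the log2 ratio of Swarna to Pokkali (FPKM + 0.5) for each of the 10 genes, filled in NP and open in EP, with dotted lines at 2-fold. In EP 8 genes lie between −0.64 and 0.33, while in NP *OsIAA14* and *OsIAA6* lie at 3.04 and 2.35 and *OsIAA9* and *OsIAA20* at −1.71 and −2.12.

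The sum of the 10 genes was lower in Swarna NP than in Pokkali NP, at 138 and 178 FPKM, but without *OsIAA13* it was 1.56-fold higher in Swarna NP, with 54.7 FPKM against 35.1 for Pokkali NP. The make-up of the sum differed accordingly. *OsIAA14* and *OsIAA6* made up 18.2 and 12.0% of it there, against 1.02 and 0.189% in Swarna EP, 1.47 and 1.60% in Pokkali NP and 1.02 and 0.162% in Pokkali EP. *OsIAA30* and LOC_Os12g40900 together with *OsIAA13* carried most of the sum in EP. *OsIAA30* made up 1.76% in Swarna NP and 14.4% in Swarna EP, and 2.08% in Pokkali NP and 14.5% in Pokkali EP. For LOC_Os12g40900 the shares were 0.407 and 5.83% in Swarna NP and EP and 0.816 and 8.36% in Pokkali NP and EP. *OsIAA20* held 6.42% of the sum in Pokkali NP, second to *OsIAA13*, and 1.62% in Swarna NP.

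**Figure D4:**
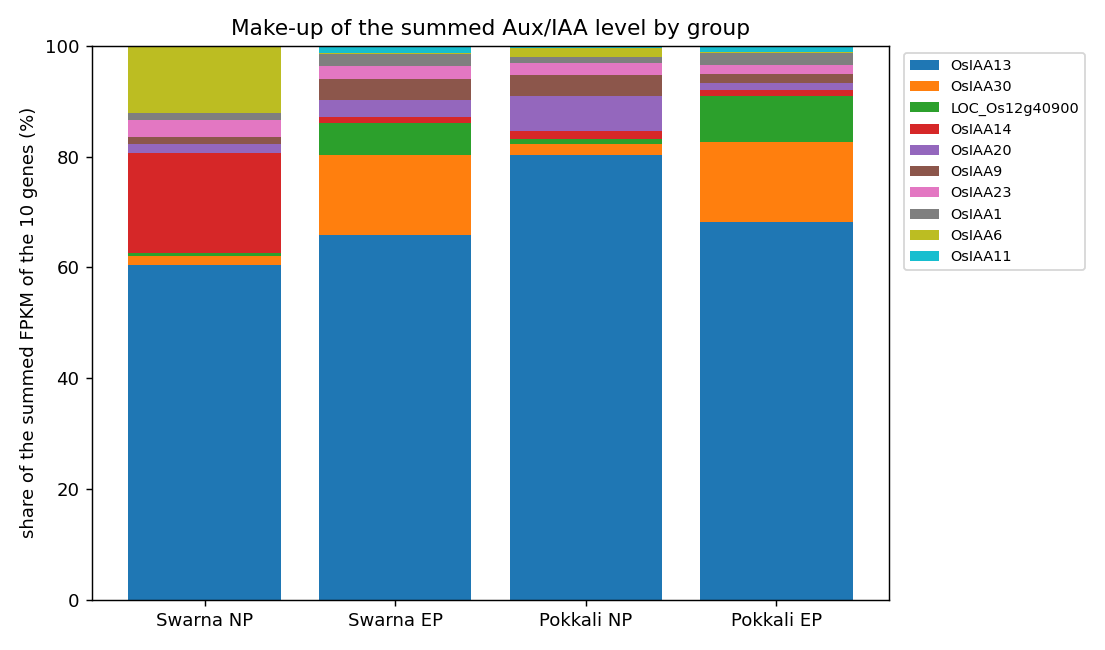
Stacked bars give the share of each gene in the summed FPKM of the 10 Aux/IAA genes, in percent, for Swarna NP, Swarna EP, Pokkali NP and Pokkali EP. *OsIAA13* takes the largest part of every bar, from 60.4% in Swarna NP to 80.2% in Pokkali NP, and *OsIAA14* and *OsIAA6* are visible as broad bands in Swarna NP alone.

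Another 8 Aux/IAA genes are named in the study's tables, which list genes chosen as differing in these samples. In Swarna, 7 of the 8 were at least 2-fold lower in NP, where 25.4% of all loci were, and 1 was higher, where 26.6% were. In Pokkali 5 were lower, against 14.8% of all loci, and none higher, against 15.9%. The medians of the 8 were −2.42 in Swarna and −1.25 in Pokkali. The one higher in Swarna NP was *OsIAA7*, at a log2 ratio of 1.07 that passes 2-fold with neither a constant of 1 nor equal column sums, and it is named here after its values were seen. *OsIAA12*, which lies 10287 bases from *OsIAA11* and has been linked to leaf angle in rice, had 2.26 FPKM in Swarna NP and 34.3 in Swarna EP, and 7.32 in Pokkali NP and 24.4 in Pokkali EP. *OsIAA17* was the most abundant of the 8, with 42.1 FPKM in Swarna NP and 246 in Swarna EP, and 98.3 in Pokkali NP and 221 in Pokkali EP. *OsIAA15* had ratios on the log2 scale of −3.22 (Swarna) and −1.49 (Pokkali), *OsIAA8* of −2.58 and −1.89, and *OsIAA24* of −2.06 and −1.34. The NP values of *OsIAA8* were 0.0593 FPKM in Swarna and 0.661 in Pokkali, where the added constant sets much of the ratio. *OsIAA10* had −2.31 in Swarna and −0.18 in Pokkali, lower in Swarna NP and nearly level in Pokkali, as *OsIAA9* was. Unlike *OsIAA9*, it had similar EP levels in the 2 cultivars, 21.4 FPKM in Swarna and 22.6 in Pokkali.

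The partners of the Aux/IAA proteins did not share 1 direction. The 13 loci of the ARF family used here also come from the study's tables of genes that differ, so many calls among them follow from that choice. By 2-fold or more, 7 were lower in Swarna NP, against 25.4% of all loci, and 5 higher, against 26.6%. In Pokkali 5 were lower, against 14.8%, and 1 higher, against 15.9%. The ARF medians were −1.20 in Swarna and −0.34 in Pokkali. *OsARF4* was the one higher in Pokkali, just past 2-fold, and is named after its value was seen. *OsARF12*, which in rice takes part in root elongation, had 9.45 FPKM in Swarna NP and 65.8 in Swarna EP, and 13.9 in Pokkali NP and 50.1 in Pokkali EP. *OsARF16* had log2 ratios of −2.44 (Swarna) and −1.19 (Pokkali), *OsARF11* of −2.40 and −1.27, and *OsARF9* of −1.84 and −1.31. The levels of *OsARF11* were low, at 0.0534 and 2.42 FPKM in Swarna NP and EP and 0.00389 and 0.716 in Pokkali NP and EP. The added constant therefore sets much of the ratios of *OsARF11*. In the opposite direction, *OsARF19* had 87.5 FPKM in Swarna NP and 13.9 in Swarna EP, and 10.5 in Pokkali NP and 5.25 in Pokkali EP. The ARF locus LOC_Os04g43910 had log2 ratios of 2.62 (Swarna) and −0.34 (Pokkali), so that, as with *OsIAA14*, its high level was that of Swarna NP, at 23.4 FPKM against 3.39 in Swarna EP.

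Of 5 auxin receptor loci listed, only *OsTIR1;1* is named in the study's tables of genes that differ, and the others were left out. *OsTIR1;1* had 74.5 FPKM in Swarna NP and 26.3 in Swarna EP, a log2 ratio of 1.48. In Pokkali it had 21.7 FPKM in NP and 14.5 in EP, a log2 ratio of 0.57. It does not stand for the receptors as a group. Of the 4 genes listed for auxin biosynthesis, *OsASB1*, a subunit of anthranilate synthase, had a higher level in NP, with log2 ratios of 2.32 for Swarna and 1.18 for Pokkali. *OsASA1*, another subunit of that enzyme, had −1.90 and −0.41. The tryptophan aminotransferase genes, which act in the main route to auxin, had log2 ratios of −2.28 (Swarna) and 0.11 (Pokkali) for *OsTAA1;1* and of −0.70 and 2.04 for *OsTAA1;2*, all at 3.12 FPKM or less.

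**Figure D5:**
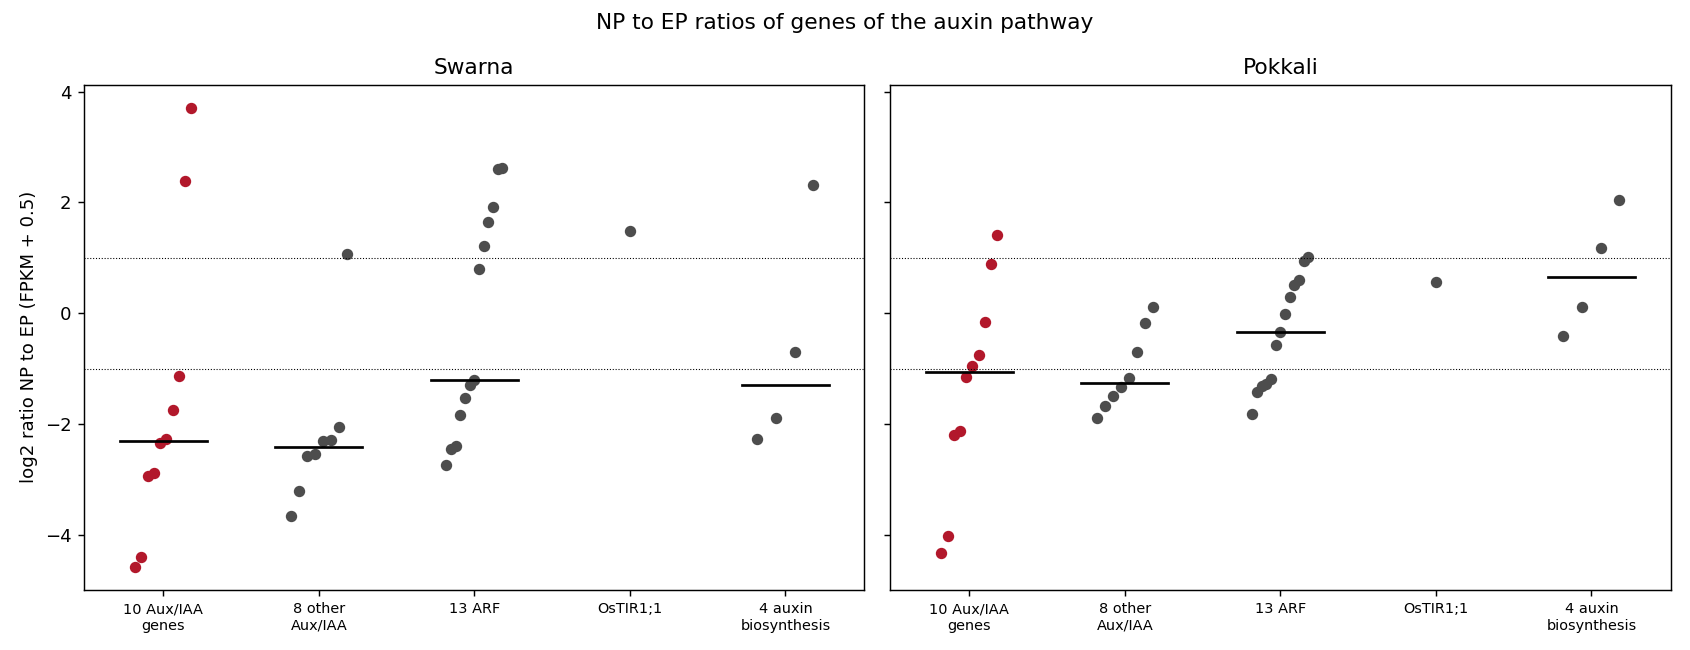
Points give the log2 ratio of NP to EP (FPKM + 0.5) of single genes in Swarna (left) and Pokkali (right) for the 10 Aux/IAA genes in red and, in grey, 8 other Aux/IAA genes, 13 ARF loci, *OsTIR1;1* and 4 auxin biosynthesis genes, with lines at the list medians and dotted lines at 2-fold. The medians of the 10 genes are −2.31 in Swarna and −1.05 in Pokkali, and those of the ARF loci −1.20 and −0.34.

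Among 35 other loci of these auxin lists, the 3 nearest to *OsIAA13* in their 4 centred log2 values were *OsIAA24*, *OsARF2* and *OsIAA17*, at Euclidean distances of 0.42, 0.46 and 0.56, where the median of the 35 was 1.26. Nearest to *OsIAA30* were LOC_Os12g40900, *OsIAA11* and *OsIAA12*, at distances of 0.50, 1.68 and 1.75, where the median was 3.22. Each distance rests on 4 group values, and these loci share the libraries.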

How the data were processed

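Total RNA libraries of 12 peduncle samples, in 4 groups of 3, were prepared with a stranded kit. By the study's methods, read quality was filtered in the NGSQC Toolkit. Alignment used HISAT2 (2.1.0) and version 7 of the Rice Genome Annotation Project, assembly used StringTie (1.3.3b) and Cuffmerge, and the authors obtained FPKM from Cufflinks and group differences from Cuffdiff. The deposited FPKM values are 1 per assembled locus and group. Depth cannot be recovered from them, since they combine libraries, and the libraries are not analysed here one by one.

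Of 73781 rows, those naming 1 locus of that annotation were used, and for a locus with several rows the one with the highest mean over the groups was taken. Starts of spans were moved by 1 base to count from 1. The 19126 loci reaching 1 FPKM in any group were compared as log2(FPKM + 0.5), with a call at 2-fold. The model and replicate block foreseen for library values could not be run. The code was run on simulated data without noise, with changes larger than 2-fold planted in loci of at least 10 FPKM. That run checks the code alone and says nothing of the reliability of calls in these data. Alternatives were constants of 0.1 and 1, 3 scalings, summed rows, and no filter or one of 10 FPKM. The genes and lists were chosen with earlier results of these data known. The text names all 10 genes, up to 6 per other list with the largest mean size of both ratios, and the 3 loci nearest to the 2 most abundant genes. Loci of the auxin lists were kept only where the study's tables name them or their family. TOPLESS loci were thereby left out. Python 3.11.15, numpy 2.4.6, pandas 2.3.3 and matplotlib 3.10.9 were used.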

Additional observations from a re-analysis of the deposited data

Results flagged for a closer look

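The NP to EP ratios of *OsIAA20* and *OsIAA14* had opposite signs in the 2 cultivars, with at least 2-fold in Swarna. For *OsIAA20* the log2 ratio in Swarna minus that in Pokkali was −3.23, and for *OsIAA14* it was 3.14. Each rests on 4 group values, and the difference was not tested. Opposite signs with at least 2-fold higher in Swarna NP were found for 3.62% of all loci and with at least 2-fold lower in Swarna NP for 5.27%. A count of 1 gene of 10 in each direction is too small to be set against these shares.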

How the results depend on the processing

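Over 8 alternatives, 380 of 390 ratios of the 10 genes kept their side of 2-fold, 10 passed 2-fold under an alternative alone and none fell below it. No ratio of 2-fold or more turned its sign. Of the smaller ones, 12 did, all of Swarna to Pokkali, for 6 genes in EP and, in NP, for *OsIAA1* with quantile normalization (0.03) and *OsIAA23* with equal column sums (−0.09). Of 112 counts, 106 stayed within 1.5 times. With a minimum of 10 FPKM, which drops *OsIAA1* and *OsIAA11*, the genes at least 2-fold lower in Pokkali NP numbered 3 of 8, where 13.5% of all loci were lower. With a constant of 0.1, 4 genes were at least 2-fold lower in Swarna NP than in Pokkali NP, where 24.1% of all loci were. With equal column sums, 4 genes had a difference between cultivars of −1 or below, where 33.3% of all loci did. The single other Aux/IAA gene higher in Swarna NP, *OsIAA7* at 1.07, was chosen after its values were seen, and the count became 0 with a constant of 1 and with equal column sums. It was also 0 with the minimum of 10 FPKM, which drops *OsIAA7*, at most 1.90 FPKM, from the comparison. Apart from the genes dropped by that minimum, the cause of these movements was not tested. No paired analysis was possible because the table holds no values of single libraries, and for the same reason no replicate could be left out. Low FPKM values are the least precise, and their error cannot be given.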
